A study of Homo sapiens and Mus musculus with 27 samples.

Results

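The NF-κB subunits and feedback inhibitors are 10 genes: the 5 subunits NFKB1, NFKB2, REL, RELA and RELB, the 3 IκB inhibitors NFKBIA, NFKBIB and NFKBIE, and the 2 ubiquitin-editing feedback genes TNFAIP3 and BIRC3. They were taken by symbol, with the mouse orthologs of the same names, and all 10 were found among the 78932 features of each human count table and the 25239 features of the mouse table. To compare the branches of the pathway, NFKB2, RELB and BIRC3 were treated as the 3 non-canonical members and the other 7 as canonical members. The place of BIRC3, a feedback gene, among the non-canonical members is a choice made here. Counts, medians and means by branch depend on it. Poly(A) RNA had been sequenced in 27 libraries, 3 for each of 9 groups.

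HCC1937, a human BRCA1-mutant triple-negative breast cancer line, was exposed to 10 µM TM, to 10 µM AMD3100 or to vehicle. MDA-MB-231, a human triple-negative line with mesenchymal features, received 10 nM bortezomib with 10 µM TM, 10 nM bortezomib with 10 µM AMD3100, or vehicle. Tumours of the mouse mammary carcinoma 4T1, grown in Balb/c hosts that keep their immune system, came from animals given 1 mg/kg bortezomib every 4 days plus TM at 0.05 mg/ml in the drinking water, from animals given the same bortezomib plus AMD3100 at 5 mg/kg every 2 days, and from vehicle animals. Bortezomib inhibits the proteasome and AMD3100 blocks the chemokine receptor CXCR4, while TM is named in the labels without being spelled out. No group analysed here received bortezomib alone, so the effect of bortezomib cannot be told apart from that of its partner, and each line is a single line. The labels call the replicates biological but do not say whether they came from separate cultures, so p-values measure the spread between these samples.

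NF-κB dimers are held in the cytoplasm by IκB proteins. In the canonical branch, receptors of the TNF, interleukin-1 and Toll-like families activate the IκB kinase complex, IκBα (the product of NFKBIA) is tagged with ubiquitin and destroyed by the proteasome, and dimers of p65 (RELA), c-Rel (REL) and p50 (from NFKB1) enter the nucleus. In the non-canonical branch, the kinase NIK (MAP3K14) drives the partial proteolysis of p100 (NFKB2) to p52, which pairs with RelB. TNFAIP3 encodes the deubiquitinase A20, BIRC3 encodes the ubiquitin ligase cIAP2, and NFKBIA and TNFAIP3 are classical targets through which the pathway limits itself. In breast cancer cells the pathway is known for supporting survival and cytokine production.

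All 10 members passed the filter on low counts in each table. Libraries held between 35981504 and 50735374 counts. Levels are in CPM (counts scaled to the library's effective total). Of 7 epithelial markers, 3 to 4 were over 1 CPM in each HCC1937 library and 4 to 5 in each MDA-MB-231 library. The 7 summed to between 2236 and 3021 CPM in HCC1937 and between 881.5 and 1579 CPM in MDA-MB-231. The 4 mesenchymal markers summed to between 302.8 and 851.7 CPM and between 957.7 and 1077 CPM in the same order. Scaling was within each line, so these sums cannot be set side by side across lines. The 4 leukocyte markers summed to at most 1.14 CPM in any cultured library. One library stood apart: HCC1937 AMD3100 replicate 1 had 19.9% of its counts on mitochondrial genes, against 10.5% to 11.6% in the other 8 HCC1937 libraries, and 20639 features with a count, against 29335 to 31770. Tests of the members that draw on HCC1937 are therefore given with and without it. One vehicle tumour (4T1 vehicle replicate 1) carries a human cell line in some of its label fields, and it was kept as a tumour by its title and its column in the mouse table.

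The promoters of several members hold matches to the κB consensus, the sequence that NF-κB dimers bind. From members whose levels changed in the comparisons that follow, 5 were chosen by hand and are shown. Sequences are from RefSeq (GRCh38.p14), which had entries for 8 of the 10 members and none for RELB or NFKBIE. Each line gives the 120 bases just before a start site on the gene's own strand, with κB consensus matches in capitals. For NFKB2, NFKB1 and NFKBIB a start site with a match was picked, and another start site of the same gene held none. The bases after the NFKB1 start sites were not found in a GENCODE transcript of the gene. Matches were sought on both strands, and overlapping matches appear as 1 run of capitals.
NFKB2: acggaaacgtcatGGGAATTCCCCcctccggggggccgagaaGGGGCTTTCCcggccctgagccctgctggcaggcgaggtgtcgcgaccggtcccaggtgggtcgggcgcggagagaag
NFKB1: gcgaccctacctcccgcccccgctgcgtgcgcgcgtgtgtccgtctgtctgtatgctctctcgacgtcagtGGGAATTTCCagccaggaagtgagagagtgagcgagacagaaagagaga
NFKBIA: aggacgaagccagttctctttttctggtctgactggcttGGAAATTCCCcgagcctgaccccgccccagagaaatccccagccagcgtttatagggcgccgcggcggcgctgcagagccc
NFKBIB: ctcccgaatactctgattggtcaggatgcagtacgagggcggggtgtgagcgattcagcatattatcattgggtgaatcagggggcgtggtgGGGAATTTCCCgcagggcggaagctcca
TNFAIP3: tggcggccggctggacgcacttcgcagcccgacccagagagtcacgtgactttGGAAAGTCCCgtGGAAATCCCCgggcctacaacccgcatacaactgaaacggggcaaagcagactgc

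The windows lie at chr10:102394458-102394577 (plus strand) for NFKB2, chr4:102501239-102501358 (plus) for NFKB1, chr14:35404750-35404869 (minus) for NFKBIA, chr19:38899849-38899968 (plus) for NFKBIB and chr6:137867139-137867258 (plus) for TNFAIP3. The NFKB2 and TNFAIP3 windows show 2 separate runs each. Over the 250 bases before the start, 8 of the 13 start-site entries of the members held at least 1 match, against 5.21% of all 35116 entries searched. Taken by gene, 7 of the 8 members with an entry held a match at 1 or more of up to 3 start sites, the exception being RELA, and this share by gene has no counterpart in the share of single entries. REL (chr2:60881521-60931610) and BIRC3 (chr11:102317450-102339403) also held matches and are not printed. In GENCODE v29 on GRCh38, RELA lies at chr11:65653596-65663094, RELB at chr19:45001430-45038198 and NFKBIE at chr6:44258166-44265788. A match is a string of letters and not evidence that NF-κB was bound there in these cells.

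In MDA-MB-231, both bortezomib combinations changed nearly every member. NFKB2 and RELB, the subunits of the non-canonical dimer, had the largest increases, the 3 IκB genes were higher by 1.52-fold to 3.13-fold, and NFKB1 was lower. With edgeR's quasi-likelihood test and Benjamini-Hochberg adjustment over all genes, called at an adjusted p under 0.05, 7 members rose and 1 fell with bortezomib plus TM, where 51.7% of all 16498 genes tested were called (24.1% higher and 27.6% lower). With bortezomib plus AMD3100, 8 members rose and 1 fell, where 46.5% of all genes were called (22.3% higher and 24.2% lower). The 8 include REL, which was near the detection limit and passed the low-count filter through the treated groups. About as many genes were called as not, so the sizes of the members' changes say more than their count, and both comparisons use the same 3 vehicle libraries. The scaling factors also differed between treated and vehicle libraries. With library totals as the only scaling, an alternative chosen after seeing the data, log2 changes against vehicle shifted by -0.42 with bortezomib plus TM and by -0.36 with bortezomib plus AMD3100. All directions held, but RELA and TNFAIP3 were no longer called with bortezomib plus TM (adjusted p = 0.220 and 0.252), nor REL and NFKBIE with bortezomib plus AMD3100 (adjusted p = 0.0691 and 0.157).

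RELB, the transcription-activating partner of p52, showed the largest change of any member. It had 55.8, 54.0 and 43.6 CPM with bortezomib plus TM, 48.6, 44.6 and 53.4 CPM with bortezomib plus AMD3100, and 5.19, 6.85 and 4.79 CPM with vehicle. All 6 treated libraries lay far above the 3 vehicle libraries. The log2 fold change was 3.19 ± 0.17 (SE, adjusted p = 7.62e-08) for bortezomib plus TM and 3.12 ± 0.17 (adjusted p = 1.08e-07) for bortezomib plus AMD3100, and 179 and 171 of the 16498 genes rose by more.

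NFKB2, which encodes p100, had 278, 254 and 212 CPM with bortezomib plus TM, 256, 261 and 301 CPM with bortezomib plus AMD3100, and 55.7, 67.5 and 49.6 CPM with vehicle. Treated and vehicle libraries were again far apart, while the treated groups overlapped. Its log2 fold change was 2.11 ± 0.14 (adjusted p = 3.73e-07) with bortezomib plus TM and 2.24 ± 0.14 (adjusted p = 3.15e-07) with bortezomib plus AMD3100.

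BIRC3 did not follow them. It was barely detected, at 0.638, 0.188 and 1.12 CPM with bortezomib plus TM, 1.69, 0.725 and 0.212 CPM with bortezomib plus AMD3100 and 0.553, 1.08 and 1.46 CPM with vehicle, that is 7 to 76 counts a library. The 3 groups overlapped fully and neither comparison was called (adjusted p = 0.452 with bortezomib plus TM and 0.805 with bortezomib plus AMD3100), with 95% intervals of the log2 fold change of -2.13 to 0.84 and -1.70 to 1.23.

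**Figure D1:**
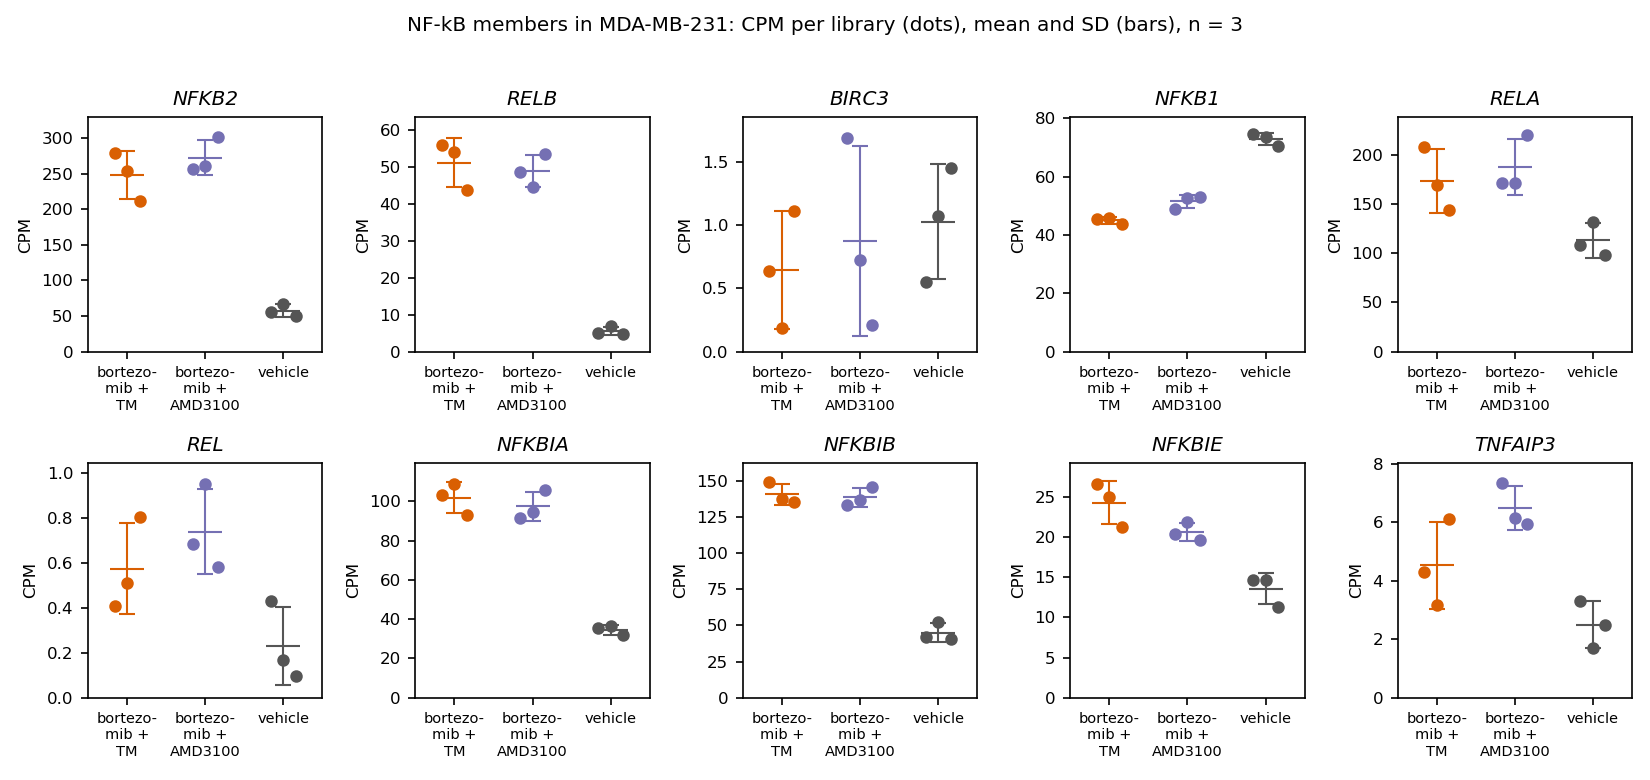
Level of each member in MDA-MB-231 in CPM on the vertical axes, for bortezomib plus TM, bortezomib plus AMD3100 and vehicle (dots are libraries, bars the mean and SD, n = 3). NFKB2, RELB, NFKBIA, NFKBIB and NFKBIE lie higher in all 6 treated libraries than in the 3 vehicle libraries, NFKB1 lies lower, and BIRC3 overlaps. Of all genes, 58.4% did not overlap vehicle with bortezomib plus TM and 57.9% with bortezomib plus AMD3100, against 7 and 9 of the 10 members. The 9 include REL, which was tested because it was higher in treated cells.

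Among the canonical subunits the directions were mixed. NFKB1, the source of p105 and p50, had 45.4, 45.9 and 43.7 CPM with bortezomib plus TM, 48.9, 52.7 and 53.0 CPM with bortezomib plus AMD3100, and 74.6, 73.5 and 70.6 CPM with vehicle. It was the only member that fell, by 0.70 ± 0.10 on the log2 scale (adjusted p = 9.09e-05) with bortezomib plus TM and by 0.50 ± 0.10 (adjusted p = 0.00117) with bortezomib plus AMD3100, and every treated library lay under every vehicle library.

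RELA, the main activating subunit, had 208, 169.8 and 143 CPM with bortezomib plus TM, 171, 172 and 221 CPM with bortezomib plus AMD3100, and 109, 132 and 98.2 CPM with vehicle. The groups did not overlap but came close, and RELA rose by 0.62 ± 0.16 (adjusted p = 0.00620) and 0.73 ± 0.16 (adjusted p = 0.00258) on the log2 scale.

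REL was near the detection limit, at 0.410, 0.510 and 0.803 CPM with bortezomib plus TM, 0.685, 0.950 and 0.583 CPM with bortezomib plus AMD3100, and 0.428, 0.167 and 0.0957 CPM with vehicle, or 5 to 38 counts a library. Its log2 fold change was 1.30 ± 0.54 (adjusted p = 0.0634) with bortezomib plus TM, not called, and 1.66 ± 0.54 (adjusted p = 0.0248) with bortezomib plus AMD3100, called. REL passed the low-count filter through the treated groups, since only 1 vehicle library reached the filter's level of 0.236 CPM, so it was tested because it was higher in treated cells. The call was lost (adjusted p over 0.05) on leaving out vehicle replicate 2, vehicle replicate 3 or AMD3100 replicate 2.

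The inhibitors rose together. NFKBIA had 103, 109 and 93.2 CPM with bortezomib plus TM, 91.7, 94.8 and 106 CPM with bortezomib plus AMD3100, and 35.2, 36.7 and 31.7 CPM with vehicle. NFKBIB, which encodes the less inducible IκBβ, had 149, 138 and 135 CPM with bortezomib plus TM, 134, 137 and 146 CPM with bortezomib plus AMD3100, and 41.7, 52.7 and 40.6 CPM with vehicle. In both genes all 6 treated libraries stood well above vehicle, with log2 fold changes of 1.56 ± 0.11 and 1.5 ± 0.11 for NFKBIA and 1.65 ± 0.12 and 1.63 ± 0.12 for NFKBIB, for the TM and the AMD3100 combination in that order, each with an adjusted p of at most 9.40e-07.

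NFKBIE, the gene of IκBε, had 26.7, 25 and 21.3 CPM with bortezomib plus TM, 20.5, 21.9 and 19.6 CPM with bortezomib plus AMD3100, and 14.7, 14.7 and 11.3 CPM with vehicle. It rose less, by 0.84 ± 0.16 (adjusted p = 0.000742) and 0.61 ± 0.16 (adjusted p = 0.00706).

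TNFAIP3 had 4.28, 3.17 and 6.11 CPM with bortezomib plus TM, 7.35, 6.15 and 5.94 CPM with bortezomib plus AMD3100, and 3.32, 1.71 and 2.47 CPM with vehicle. The TM combination overlapped vehicle by 1 library and the AMD3100 combination did not, with log2 fold changes of 0.86 ± 0.29 (adjusted p = 0.0251) and 1.37 ± 0.29 (adjusted p = 0.00204). The call for bortezomib plus TM was lost without TM replicate 3, vehicle replicate 2 or vehicle replicate 3.

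Read as branches, 2 of the 3 non-canonical members rose with bortezomib plus TM (median log2 fold change 2.11). So did 5 of the 7 canonical members, with 1 lower (median 0.86). Of all genes 24.1% rose and 27.6% fell, and their median was -0.09. With bortezomib plus AMD3100, 2 of 3 non-canonical members rose (median 2.24) and 6 of 7 canonical members rose with 1 lower (median 1.37). Of all genes 22.3% rose and 24.2% fell, and their median was -0.05. The 6 and the canonical medians include REL, which was tested because it was higher in treated cells. Each non-canonical median is the value of NFKB2, the middle one of 3 genes. The branches as a whole did not separate in both comparisons. The mean log2 CPM of the 3 non-canonical members minus that of the 7 canonical members was -0.23, -0.73 and -0.26 with bortezomib plus TM, 0.03, -0.47 and -0.80 with bortezomib plus AMD3100, and -1.53, -0.79 and -0.76 with vehicle. The TM combination lay just above vehicle, while 1 AMD3100 library lay under 2 vehicle libraries. This mean includes BIRC3, whose level varied widely among libraries. The ratios of the paired subunits did separate. The log2 ratio of NFKB2 to NFKB1 was 2.62, 2.47 and 2.27 with bortezomib plus TM, 2.39, 2.30 and 2.5 with bortezomib plus AMD3100, and -0.42, -0.12 and -0.51 with vehicle. The log2 ratio of RELB to RELA was -1.90, -1.65 and -1.72 with bortezomib plus TM, -1.82, -1.94 and -2.05 with bortezomib plus AMD3100, and -4.38, -4.26 and -4.35 with vehicle. All treated libraries lay above all vehicle libraries in both ratios, and the 2-sided exact permutation test gave p = 0.1 in each of the 4 comparisons, the smallest that 3 against 3 libraries allow. These ratios are of CPM, so their sizes depend on gene length and only their shifts compare libraries.

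**Figure D2:**
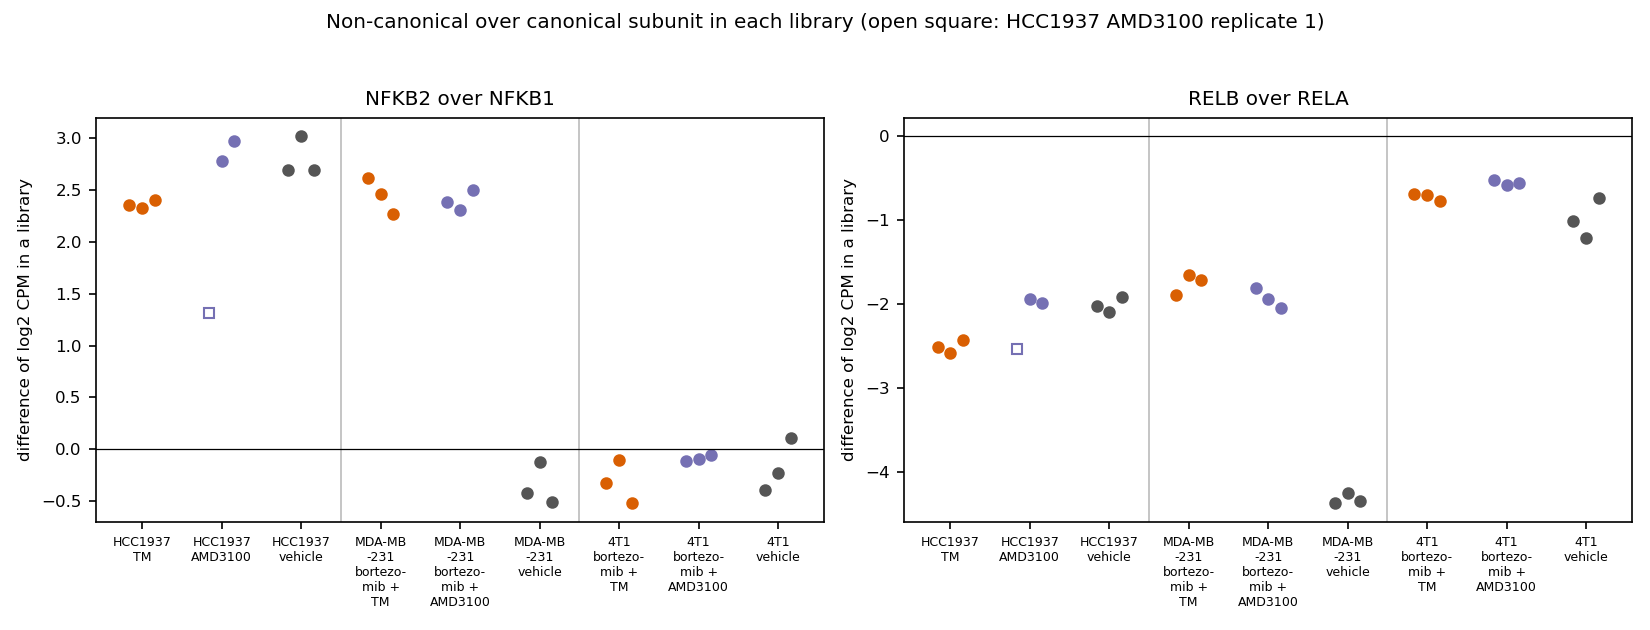
Log2 ratio of NFKB2 to NFKB1 (left) and of RELB to RELA (right) in every library, as a difference of log2 CPM, by line and treatment (1 dot per library). In MDA-MB-231 the 6 treated libraries lie more than 2 units above the vehicle libraries in both panels, while in HCC1937 with TM both ratios lie under vehicle, and the open square marks HCC1937 AMD3100 replicate 1.

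Per kilobase of gene length (RPKM, using the exon length given in the table), the order of the members in MDA-MB-231 also changed. With bortezomib plus TM, NFKBIB led at 60.6 ± 3.16 RPKM (SD, n = 3), followed by NFKB2 at 44.4 ± 6.05, RELA at 31.8 ± 5.96, NFKBIA at 30.0 ± 2.36, RELB at 17.1 ± 2.20, NFKBIE at 9.43 ± 1.06 and NFKB1 at 2.87 ± 0.0713 RPKM. With vehicle, RELA at 20.7 ± 3.17 and NFKBIB at 19.3 ± 2.88 RPKM led and did not differ beyond their spread, NFKB2 at 10.3 ± 1.63 and NFKBIA at 10.2 ± 0.759 did not either, and NFKBIE at 5.26 ± 0.757, NFKB1 at 4.65 ± 0.132 and RELB at 1.87 ± 0.364 RPKM came after them. TNFAIP3, BIRC3 and REL were at most 1.14 RPKM in every MDA-MB-231 library. The lengths in the table for NFKB1 (15679 bases) and REL (17129 bases) are the longest of the 10, and a level per length depends on them.

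No difference between bortezomib plus AMD3100 and bortezomib plus TM was detected. None of the 10 members was called by edgeR's quasi-likelihood test, none had an unadjusted p under 0.05 and DESeq2 called none, against 0% of all genes called in this comparison. The 95% intervals of the log2 difference were -0.16 to 0.43 for NFKB2, -0.41 to 0.27 for RELB, -0.30 to 0.17 for NFKBIA and -0.27 to 0.23 for NFKBIB. The interval was wider for TNFAIP3, at -0.10 to 1.13. It was -0.01 to 0.41 for NFKB1, which lay higher with AMD3100 in all 3 libraries, as 13.4% of all genes lay apart in this comparison. The low counts of REL and BIRC3 gave intervals of -0.76 to 1.48 and -1.10 to 1.93.

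Upstream of the members, of 5 genes of non-canonical control, 3 rose and 1 fell with either combination, where 51.7% of all genes were called with bortezomib plus TM and 46.5% with bortezomib plus AMD3100. MAP3K14, the kinase NIK, averaged 112 ± 13.8 CPM with bortezomib plus TM, 108 ± 15.5 CPM with bortezomib plus AMD3100 and 30.5 ± 4.92 CPM with vehicle (log2 fold changes 1.88 ± 0.15 and 1.82 ± 0.15). TRAF3, the adaptor that keeps NIK low by directing its degradation, fell to 39.0 ± 1.26 and 43.3 ± 0.828 CPM in the same treated groups, against 59.3 ± 3.46 CPM with vehicle. TRAF2, which works beside TRAF3, rose to 215 ± 29.4 and 200.5 ± 11 CPM, against 103 ± 11.3 CPM, and CHUK, which encodes the kinase IKKα, rose by 0.84 and 0.86 on the log2 scale.

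Receptors, adaptors and kinases were called no more often than genes in general, at 51.7% and 46.5%, except for receptors with bortezomib plus AMD3100, at 5 of 10. Of 12 receptors, 10 were tested, of which 3 rose and 1 fell with bortezomib plus TM and 3 rose and 2 fell with bortezomib plus AMD3100. TNFRSF12A, the TWEAK receptor, averaged 748 ± 84.3 CPM with bortezomib plus TM, 619 ± 41.1 CPM with bortezomib plus AMD3100 and 256 ± 25.2 CPM with vehicle. CD40 rose by 1.41 and 1.34 and LTBR, the lymphotoxin-β receptor, by 0.44 and 0.45 on the log2 scale, and these 3 are receptors known to engage the non-canonical branch. TNFRSF13C, another such receptor, was sparse and went the other way. It had 12 to 24 counts a library with bortezomib plus TM and 3 to 20 with bortezomib plus AMD3100, against 37 to 49 with vehicle. TNFRSF1A, the main TNF receptor, fell by 0.47 in both. Of 22 adaptors and kinases, 5 rose and 4 fell with bortezomib plus TM and 5 rose and 2 fell with bortezomib plus AMD3100: the interleukin-1 receptor kinase gene IRAK2 rose by 1.37 and 1.49, while TAB1, an activator of the kinase TAK1, fell by 1.44 and 1.65, and IKBKB, which encodes the kinase IKKβ, fell by 1.06 and 0.81. Only 2 of 10 ligand genes passed the filter, and TNFSF12, the TWEAK gene, fell by 0.90 and 1.27. The other, IL1A, had 0.955 ± 0.477 and 1.04 ± 0.198 CPM, against 0.0436 ± 0.0298 CPM with vehicle. No vehicle library reached the filter's level for IL1A (1 to 4 counts), so it was tested because it was high in treated cells. Of the 5 subunits of the ligase that marks IκB for the proteasome, BTRC and SKP1 rose in both comparisons.

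Other negative regulators and targets were counted in the same way, against the same shares over all genes. TNIP3 and MMP9, which are among the genes counted as higher, had no vehicle library at the filter's level. Of 17 other inhibitors, 10 rose and 1 fell with either combination (medians 0.60 and 0.53). TNIP1, the A20-binding protein ABIN1, averaged 426 ± 70.3 CPM with bortezomib plus TM and 424 ± 43.5 CPM with bortezomib plus AMD3100, against 117 ± 15.8 CPM with vehicle. TRAF1 rose by 2.44 and 2.45, TNIP2 by 1.26 and 1.15, and CYLD, a deubiquitinase, by 1.66 in both. Of 20 target genes, 18 were tested, of which 11 rose and 4 fell with bortezomib plus TM (median 1.06) and 10 rose and 3 fell with bortezomib plus AMD3100 (median 1.06). CXCL8, the gene of interleukin-8, rose to 6.14 ± 1.47 and 4.87 ± 1.69 CPM, against 0.536 ± 0.0167 CPM with vehicle, and CD83 and IRF1 rose by between 1.13 and 1.44. PLAU, the urokinase gene, fell to 67.8 ± 4.55 and 68.9 ± 7.52 CPM, against 215 ± 19.8 CPM with vehicle. Each gene named in these sentences as having risen or fallen had an adjusted p under 0.05 in edgeR's quasi-likelihood test.

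In HCC1937, where TM and AMD3100 were given without bortezomib, changes were smaller. With all 9 libraries, no member was called with TM against vehicle by edgeR's quasi-likelihood test, where 7.07% of 19461 genes were called (2.96% higher and 4.11% lower), and only TNFAIP3 had an unadjusted p under 0.05. DESeq2 called 1 member, TNFAIP3. Without AMD3100 replicate 1, which enters this comparison through the shared scaling, filter and estimate of spread, 5 members rose and none fell, where 40.8% of 20398 genes were called (19.4% higher and 21.4% lower). All 5 are canonical members, a branch that holds 7 of the 10, and none of the 3 non-canonical members was called in either fit. With 5 of 10 members called against 40.8% of all genes, these counts are not read as a difference between branches.

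TNFAIP3, the A20 gene, had the largest difference. It had 19, 15.1 and 14.9 CPM with TM, 4.67, 9.29 and 7.89 CPM with AMD3100 and 10.1, 9.38 and 10.1 CPM with vehicle. All TM libraries lay above the vehicle range. All AMD3100 libraries lay below it, the nearest at 9.29 against 9.38 CPM. With AMD3100 against vehicle TNFAIP3 was not called by edgeR with all libraries (-0.44 ± 0.23, adjusted p = 0.882). Nor was it without AMD3100 replicate 1 (-0.18 ± 0.13, adjusted p = 0.483). The log2 fold change of TM against vehicle was 0.73 ± 0.23 (adjusted p = 0.106) with all libraries and 0.73 ± 0.11 (adjusted p = 4.49e-06) without AMD3100 replicate 1.

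NFKB1 had 24.9, 24.6 and 24.4 CPM with TM, 33.1, 20.1 and 19.99 CPM with AMD3100, and 21.4, 15.7 and 20.3 CPM with vehicle. RELA had 69.1, 75.1 and 66.8 CPM with TM, 28.2, 57.1 and 62.6 CPM with AMD3100, and 54.9, 56.0 and 57.3 CPM with vehicle. In both genes the TM libraries lay above every vehicle library, and the first AMD3100 library lay far from the other two, above them in NFKB1 and below them in RELA. Without AMD3100 replicate 1 the log2 fold change of TM against vehicle was 0.36 ± 0.09 for NFKB1 (adjusted p = 0.00202) and 0.33 ± 0.06 for RELA (adjusted p = 3.57e-05), against adjusted p of 0.390 and 0.545 with all libraries.

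NFKBIA had 40.4, 40.7 and 42.9 CPM with TM, 13.9, 30.6 and 28.7 CPM with AMD3100, and 31.7, 34.9 and 35.8 CPM with vehicle. The TM libraries lay above and the AMD3100 libraries below the vehicle range. AMD3100 against vehicle was not called by edgeR with all libraries or without AMD3100 replicate 1 (adjusted p = 0.882 and 0.157). NFKBIA rose by 0.28 ± 0.07 (adjusted p = 0.00126) with TM, and NFKBIB by 0.18 ± 0.06 (adjusted p = 0.0168), in the fit without that library only (adjusted p = 0.629 and 0.423 with all libraries).

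NFKBIB had 52.8, 56.6 and 52.6 CPM with TM, 44.3, 54.0 and 53.2 CPM with AMD3100 and 50.9, 44.8 and 47.3 CPM with vehicle, so its TM libraries lay just above the vehicle range.

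REL and BIRC3 were low but counted in every library. REL had 1.45, 0.950 and 1.57 CPM with TM, 4.37, 1.08 and 1.16 CPM with AMD3100 and 1.73, 1.70 and 0.764 CPM with vehicle. BIRC3 had 3.74, 3.95 and 4.39 CPM with TM, 9.98, 3.46 and 3.39 CPM with AMD3100 and 2.76, 4.52 and 3.97 CPM with vehicle. In both genes TM and vehicle overlapped and AMD3100 replicate 1 was the highest of the 9 libraries, and neither was called in any HCC1937 comparison, with or without it.

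RELB and NFKB2 moved little with TM. NFKB2 had 127, 123 and 129.6 CPM with TM, 82.2, 139 and 157 CPM with AMD3100 and 139, 128 and 132 CPM with vehicle, and RELB had 12.1, 12.5 and 12.3 CPM with TM, 4.81, 14.8 and 15.7 CPM with AMD3100 and 13.5, 13.05 and 15.2 CPM with vehicle. The TM group overlapped vehicle in NFKB2 and lay just under it in RELB, and AMD3100 replicate 1 was the lowest library of the 9 in both. The log2 ratio of NFKB2 to NFKB1 was 2.35, 2.32 and 2.41 with TM and 2.69, 3.02 and 2.70 with vehicle, and that of RELB to RELA was -2.51 ± 0.08 with TM and -2.01 ± 0.09 with vehicle (SD, n = 3 each). Both ratios lay under vehicle in all 3 TM libraries, with an exact permutation p = 0.1, the smallest possible here. With AMD3100 the ratio of NFKB2 to NFKB1 was 2.36 ± 0.91 and that of RELB to RELA -2.16 ± 0.33, and both overlapped vehicle (exact permutation p = 0.8 each, and 0.6 and 0.5 without AMD3100 replicate 1). The mean of the non-canonical minus that of the canonical members was -0.03 ± 0.09 with TM, 0.30 ± 0.03 with AMD3100 and 0.26 ± 0.20 with vehicle, and both treatments overlapped vehicle.

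**Figure D3:**
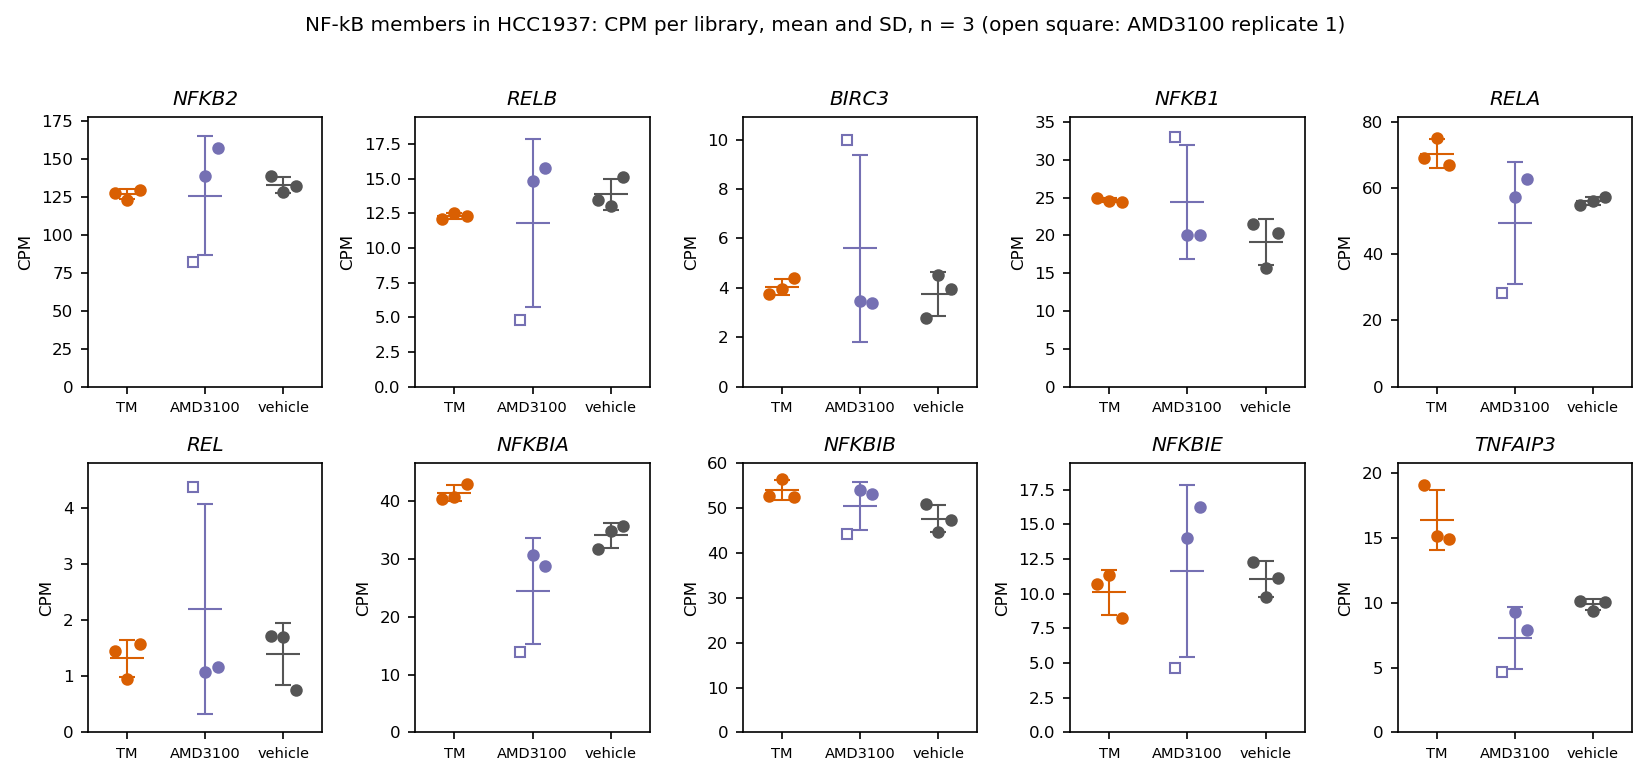
Level of each member in HCC1937 in CPM on the vertical axes, for TM, AMD3100 and vehicle (dots are libraries, bars the mean and SD, n = 3, and the open square is AMD3100 replicate 1). TNFAIP3 and NFKBIA lie above vehicle in every TM library and below it in every AMD3100 library, and the open square is the extreme AMD3100 value in all 10 panels. Neither gene was called with AMD3100 against vehicle, with or without that library. Of all genes, 51.6% did not overlap vehicle with TM (25.2% higher) and 11.4% with AMD3100 (7.15% lower), against 6 and 2 of the 10 members.

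AMD3100 against vehicle gave no call with all libraries (edgeR, no member with an unadjusted p under 0.05, none called by DESeq2), where 0% of genes were called. Without AMD3100 replicate 1, NFKBIE rose, with a log2 fold change of 0.47 ± 0.13 (adjusted p = 0.0261), where 8.14% of genes were called (5.39% higher and 2.76% lower). NFKBIE had 4.61, 14 and 16.3 CPM with AMD3100 and 12.3, 9.77 and 11.1 CPM with vehicle. Its 2 other AMD3100 libraries lay above all vehicle libraries and the first one below them.

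AMD3100 against TM gave 1 call with all libraries, TNFAIP3, which was lower with AMD3100 at -1.17 ± 0.24 on the log2 scale (adjusted p = 0.0194), where 8.22% of genes were called (4.61% higher and 3.6% lower). This call was lost without any 1 of the 3 TM libraries, and with the replicate number as a block (adjusted p = 0.0608). Without AMD3100 replicate 1, 7 members were called, where 36.5% of genes were called (19.7% higher and 16.8% lower): TNFAIP3 at -0.91 ± 0.13, NFKBIA at -0.46 ± 0.08, NFKB1 at -0.28 ± 0.10 and RELA at -0.21 ± 0.06 were lower, and NFKBIE at 0.61 ± 0.13, RELB at 0.33 ± 0.11 and NFKB2 at 0.24 ± 0.06 were higher. In that fit the called non-canonical subunits were both higher with AMD3100 and 4 of the 5 called canonical members were lower, and the group rests on 2 AMD3100 libraries.

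Around the members in HCC1937, the pathway lists depended on the fit in the same way. With TM against vehicle and all libraries, 1 of 14 tested target genes (CD83) and 1 of 16 other inhibitors (NKIRAS2) rose, and none of 10 receptors, 22 adaptors and kinases or 5 genes of non-canonical control was called. Without AMD3100 replicate 1, where 40.8% of all genes were called (19.4% higher and 21.4% lower), 5 of 10 receptors rose and 1 fell, 8 of 14 target genes rose, 7 of 16 other inhibitors rose, 3 of 22 adaptors and kinases rose and 4 fell, and no gene of non-canonical control was called (edgeR). TLR4 and IL6, among those counted as higher, were low in vehicle (2 to 11 and 4 to 9 counts) and reached the filter's level in all 3 libraries of TM only. The log2 changes that follow are from the fit without that library. LTBR averaged 528 ± 13.9 CPM with TM and 352 ± 14.6 CPM with vehicle (log2 fold change 0.59 ± 0.04), and TNFRSF12A averaged 215 ± 13.1 and 129 ± 8.60 CPM in the same order. The receptor gene TNFRSF13C went the other way, at 181 to 242 counts a library with TM and 381 to 390 with vehicle. ICAM1, an adhesion molecule gene, averaged 58.0 ± 0.404 CPM with TM and 34.1 ± 2.11 CPM with vehicle, BCL2L1, the gene of the survival protein BCL-XL, 74.3 ± 1.93 and 46.9 ± 2.11 CPM, and PLAU 4.66 ± 0.360 and 0.775 ± 0.206 CPM. NKIRAS2, a small GTPase that slows IκB degradation, rose by 0.69 ± 0.06. Among adaptors, IRAK1 rose by 0.45 ± 0.04 while TAB1 fell by 0.84 ± 0.09, TRADD fell by 0.72 ± 0.10 and RIPK1, the kinase at the TNF receptor complex, fell by 0.28 ± 0.07. With all libraries the log2 changes were 0.59 ± 0.22 for LTBR, 0.45 ± 0.23 for IRAK1, -0.84 ± 0.29 for TAB1, -0.72 ± 0.40 for TRADD and -0.28 ± 0.12 for RIPK1, with adjusted p between 0.134 and 0.370.

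**Figure D4:**
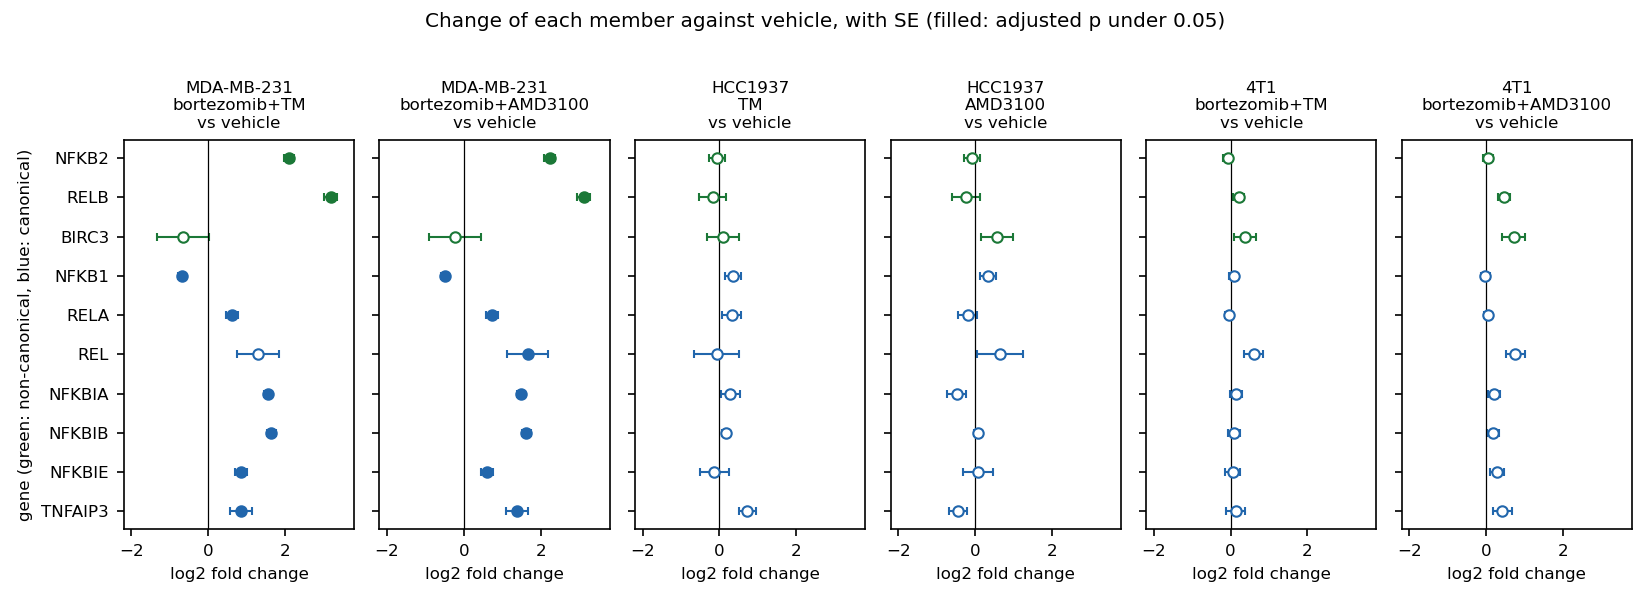
Log2 fold change against vehicle with its SE (horizontal axis) for each member in 6 comparisons, non-canonical members in green and canonical members in blue, filled where the adjusted p was under 0.05. In MDA-MB-231 RELB and NFKB2 lie at 2.11 to 3.19 and NFKB1 lies under 0, while no member is filled in HCC1937 or 4T1 with all libraries.

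Untreated, the lines differed in most members. Against HCC1937 vehicle, 5 members were higher and 4 lower in MDA-MB-231 vehicle, where 62.6% of 21590 genes were called in a joint fit (29.5% higher and 33% lower) and the median over all genes was -0.24. NFKB1 was higher in MDA-MB-231 by 2.55 ± 0.18 on the log2 scale (adjusted p = 8.24e-10) and RELA by 1.63 ± 0.23 (adjusted p = 8.21e-06), with NFKBIE, NFKBIA and NFKBIB higher by 0.91, 0.64 and 0.53. These values rest on scaling factors fitted over both lines, which were 0.951 to 1.00 in MDA-MB-231 vehicle and 1.24 to 1.25 in HCC1937 vehicle. The CPM and RPKM given elsewhere are scaled within each line and cannot be set side by side across lines. On the joint scale NFKBIB had 51.3, 63.3 and 50.6 CPM in MDA-MB-231 vehicle and 40.6, 35.8 and 37.7 CPM in HCC1937 vehicle, and NFKBIA had 43.4, 44.1 and 39.5 CPM in MDA-MB-231 vehicle and 25.3, 27.9 and 28.5 CPM in HCC1937 vehicle. None of the 10 members overlapped between the lines on that scale, nor did 77.2% of all genes. With library totals only, which shifted the log2 difference by -0.35, the 3 IκB genes stayed higher, at 0.56, 0.28 and 0.18, but were not called (adjusted p = 0.114, 0.228 and 0.177), and BIRC3 was called lower (adjusted p = 0.0331). Lower in MDA-MB-231 were REL at -1.96 ± 0.61, TNFAIP3 at -1.36 ± 0.28, RELB at -0.69 ± 0.29 (adjusted p = 0.0459) and NFKB2 at -0.59 ± 0.19. All 5 higher members are canonical and both non-canonical subunits were lower, and BIRC3 was not called (-1.25 ± 0.60, adjusted p = 0.0783). Per length and within the line, NFKB2 led in HCC1937 vehicle at 23.8 ± 0.957 RPKM, then NFKBIB at 20.5 ± 1.32, RELA at 10.3 ± 0.227 and NFKBIA at 10.1 ± 0.640, which did not differ beyond their spread, RELB at 4.64 ± 0.372 and NFKBIE at 4.28 ± 0.493, which did not either, TNFAIP3 at 1.53 ± 0.0644, NFKB1 at 1.22 ± 0.194, BIRC3 at 0.501 ± 0.121 and REL at 0.0815 ± 0.0320 RPKM. The RELB call was lost on leaving out any of 5 of the 6 vehicle libraries (all but MDA-MB-231 replicate 2), the NFKB2 and REL calls without MDA-MB-231 replicate 3, and the NFKBIE call without HCC1937 replicate 2 or MDA-MB-231 replicate 1, whereas BIRC3 was called lower without HCC1937 AMD3100 replicate 1 (adjusted p = 0.0242), where 70.4% of genes were called (32.4% higher and 38% lower). The lines were counted in separate tables, so a line and its table cannot be told apart.

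The responses of the lines differed as well. For the TM arms, the change with bortezomib plus TM in MDA-MB-231 minus the change with TM in HCC1937 was called for 5 members, where 21.6% of genes were called (11.2% higher and 10.4% lower): RELB at 3.42 ± 0.41, NFKB2 at 2.24 ± 0.27, NFKBIB at 1.52 ± 0.18, NFKBIA at 1.34 ± 0.29 and NFKB1 at -1.01 ± 0.24. For the AMD3100 arms it was called for 7 members, where 19.5% of genes were called (9.79% higher and 9.75% lower), RELB at 3.38 ± 0.41, NFKB2 at 2.34 ± 0.27, NFKBIA at 2.00 ± 0.29, TNFAIP3 at 1.82 ± 0.39, NFKBIB at 1.56 ± 0.18, RELA at 0.94 ± 0.32 and NFKB1 at -0.83 ± 0.24. Without HCC1937 AMD3100 replicate 1, 6 members were called for the TM arms, where 32.6% of genes were called: RELB at 3.42 ± 0.21, NFKB2 at 2.24 ± 0.17, NFKBIB at 1.53 ± 0.14, NFKBIA at 1.34 ± 0.15, NFKBIE at 1.03 ± 0.22 and NFKB1 at -1.01 ± 0.15. For the AMD3100 arms 8 were called, where 26.7% of genes were called: RELB at 3.00 ± 0.22, NFKB2 at 2.11 ± 0.18, REL at 1.99 ± 0.67, NFKBIA at 1.71 ± 0.16, TNFAIP3 at 1.58 ± 0.34, NFKBIB at 1.47 ± 0.15, RELA at 0.66 ± 0.21 and NFKB1 at -0.55 ± 0.16. The RELA call in the AMD3100 arms (adjusted p = 0.0468) was lost in 8 of the fits that left out 1 library and with library totals only (adjusted p = 0.189). Bortezomib was given to MDA-MB-231 only, so the line and bortezomib cannot be told apart in these differences.

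In 4T1 tumours no member was called in any comparison by edgeR's quasi-likelihood test or by DESeq2, where 0% of 15846 genes were called. Unadjusted, 1 member had p under 0.05 with bortezomib plus TM, Rel, and 3 did with bortezomib plus AMD3100, Rel, Relb and Birc3. In bulk tumour RNA, fewer cells of a type and less RNA per cell cannot be told apart. The tumours also differed in lymphoid content: the summed level of 7 B cell markers was 501, 236 and 1.77 CPM with bortezomib plus TM, 748, 4.67 and 422 CPM with bortezomib plus AMD3100, and 2.38, 6.02 and 122 CPM with vehicle, with no marker at 0 in any tumour. The 6 T cell markers summed to 292, 128 and 45.1 CPM, to 511, 47.6 and 239 CPM and to 38.6, 20.3 and 106 CPM in the same groups. The 6 macrophage markers had their highest sums in vehicle tumours, at 836.1 to 1443 CPM, 1032 to 1330 CPM and 1603 to 1698 CPM, and 5 carcinoma markers did so too, at 1070.5 to 1964 CPM, 1029 to 1298 CPM and 1579 to 2493 CPM.

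Rel, abundant in lymphocytes, had 50.4, 31.0 and 24.6 CPM with bortezomib plus TM, 42.6, 36.5 and 39.0 CPM with bortezomib plus AMD3100, and 23, 20.03 and 26.7 CPM with vehicle. With AMD3100 all 3 tumours lay above all vehicle tumours, and with TM 2 of 3 did. The log2 difference was 0.76 ± 0.24 (adjusted p = 0.634) with bortezomib plus AMD3100 and 0.60 ± 0.24 (adjusted p = 0.887) with bortezomib plus TM.

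Birc3 had 73.3, 45.1 and 37.1 CPM with bortezomib plus TM, 84.0, 54.0 and 59.1 CPM with bortezomib plus AMD3100, and 35.6, 31.5 and 52.8 CPM with vehicle. Its highest value in each treated group came from the tumour with the most B cell marker RNA, and the AMD3100 tumours did not overlap vehicle. The log2 difference with bortezomib plus AMD3100 was 0.72 ± 0.29 (adjusted p = 0.634). Non-overlap of 3 against 3 tumours was seen for 13.4% of all genes in this comparison and for 2 of the 10 members, Rel and Birc3, both higher.

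Relb had 87.4, 88.8 and 85.0 CPM with bortezomib plus TM, 112, 104 and 95.1 CPM with bortezomib plus AMD3100, and 67.4, 63.1 and 95.6 CPM with vehicle. One vehicle tumour, the one with the most B cell marker RNA of its group, reached the range of the treated tumours. Among treated tumours Relb did not follow these markers. Those with 4.67 and 1.77 CPM of B cell markers had 104 and 85.0 CPM of Relb. Those with 748 and 501 CPM of B cell markers had 112 and 87.4 CPM of Relb. The log2 difference was 0.46 ± 0.15 with bortezomib plus AMD3100 and 0.21 ± 0.15 with bortezomib plus TM.

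Nfkb2 had 207, 256 and 239 CPM with bortezomib plus TM, 256, 274 and 242 CPM with bortezomib plus AMD3100, and 217, 244 and 282 CPM with vehicle, and Nfkb1 had 259, 276 and 343 CPM, 277, 292 and 252 CPM, and 285, 286 and 261 CPM in the same groups. Both genes overlapped in all comparisons. The 95% intervals of the log2 difference from vehicle for Nfkb2 were -0.37 to 0.21 with bortezomib plus TM and -0.23 to 0.34 with bortezomib plus AMD3100. In the bulk RNA of the tumours, changes of the size seen in MDA-MB-231 lay outside them. Bulk RNA mixes cell types, so the intervals do not hold for the carcinoma cells alone.

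The other 5 members, Rela, Nfkbia, Nfkbib, Nfkbie and Tnfaip3, had log2 differences from vehicle between -0.04 and 0.42 and overlapped vehicle. Rela had 141, 144.5 and 145 CPM with bortezomib plus TM, 162, 155 and 140.3 CPM with bortezomib plus AMD3100, and 137, 147 and 159.6 CPM with vehicle. Nfkbia had 113, 155 and 124 CPM, 139, 136 and 134 CPM, and 106, 104 and 145 CPM in the same groups. The third vehicle tumour was the highest of its group in both genes, and in Nfkbib and Nfkbie as well. Tnfaip3 had 73.5, 99.7 and 103 CPM with bortezomib plus TM, 104, 126 and 107 CPM with bortezomib plus AMD3100, and 75.2, 56.8 and 119.9 CPM with vehicle, where the tumours ranged most widely. Between the combinations, Relb and Tnfaip3 were higher in all 3 tumours with AMD3100 than in all 3 with TM, as 7.37% of all genes lay apart in this comparison. The log2 ratio of Relb to Rela was -0.56 ± 0.03 with bortezomib plus AMD3100 and -0.99 ± 0.24 with vehicle (SD, n = 3 each, exact permutation p = 0.1, the smallest possible). It was -0.72 ± 0.05 with bortezomib plus TM (exact permutation p = 0.2 against vehicle). The log2 ratio of Nfkb2 to Nfkb1 was -0.32 ± 0.21 with bortezomib plus TM, -0.09 ± 0.03 with bortezomib plus AMD3100 and -0.17 ± 0.26 with vehicle (exact permutation p = 0.5 and 0.7). The mean of the non-canonical minus that of the canonical members was 0.15 ± 0.13, 0.27 ± 0.09 and 0.14 ± 0.10 in the same order, and both combinations overlapped vehicle.

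**Figure D5:**
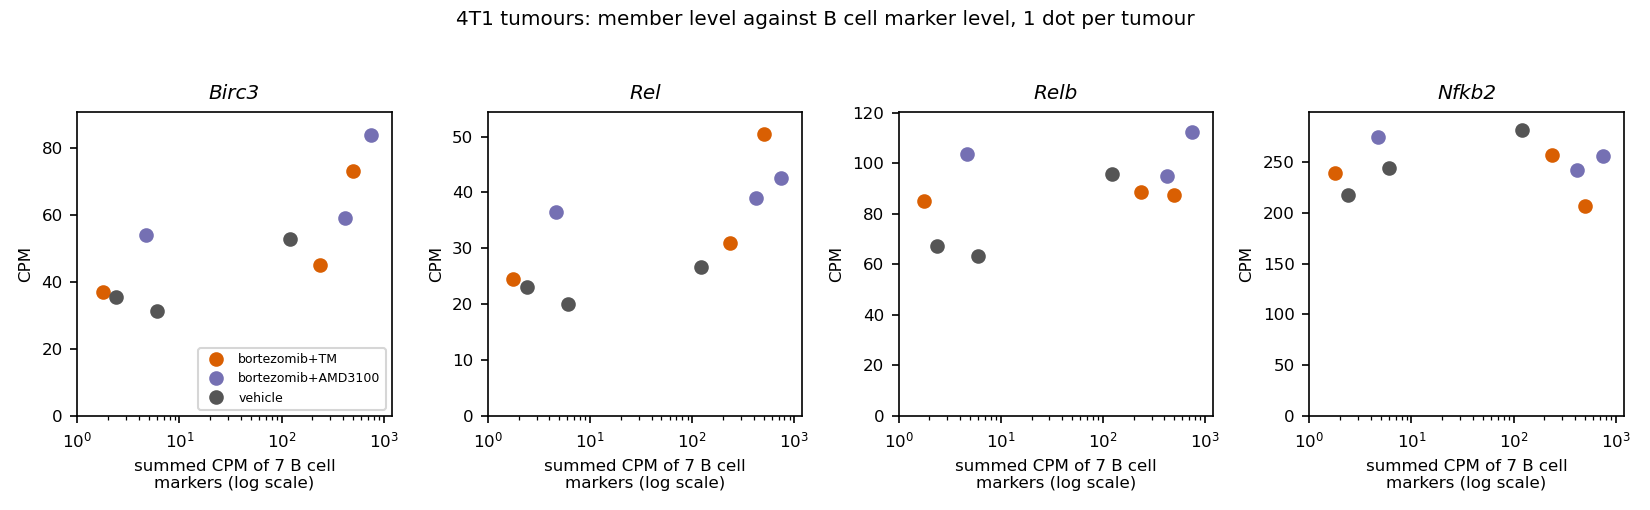
Level of Birc3, Rel, Relb and Nfkb2 (CPM, vertical axes) against the summed level of 7 B cell markers (CPM, log scale) in each of the 9 tumours of 4T1, coloured by treatment. The tumours with the most B cell marker RNA, 748 and 501 CPM, have the highest Birc3 and Rel, and Nfkb2 shows no such order. The same tumours also have the highest summed T cell markers (511 and 292 CPM) and dendritic cell markers (212 and 176 CPM). The order is therefore not particular to B cells.

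With the mean log2 level of the B cell markers as a covariate, the difference of bortezomib plus AMD3100 from vehicle was 0.57 ± 0.19 for Rel, 0.45 ± 0.20 for Birc3 and 0.39 ± 0.15 for Relb, and still no member was called. The part of T cells, dendritic cells and macrophages in these differences was not tested. Of the pathway lists, no gene was called in 4T1 tumours. Ltb, the lymphotoxin-β gene made by lymphocytes, averaged 69.6 ± 52.8 CPM with bortezomib plus TM, 130.2 ± 108 CPM with bortezomib plus AMD3100 and 29.6 ± 25.8 CPM with vehicle, a spread close to the means. Tnfrsf12a, one of the 2 most abundant receptors of the list, averaged 185 ± 66.7, 195 ± 33.9 and 189 ± 7.21 CPM in the same order, and Irf1, a target gene, averaged 344 ± 45.7, 343 ± 18.8 and 297 ± 77.1 CPM.

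Genes with the pattern most like that of NFKB2 and NFKBIA were taken by Pearson correlation of log2 CPM over the 9 libraries of a table, among genes of at least 5 CPM on average. The libraries of a table share their groups, so genes that follow the treatment correlate without further relation. In MDA-MB-231, CRTC2, UNKL and JMJD6 (r = 0.998 each) were most like NFKB2 and VCP, TESK1 and PPIF (r = 0.999 each) were most like NFKBIA, among 9023 genes compared. In HCC1937, DLL3, ARFGAP2 and LENG8 (r between 0.988 and 0.991) came closest to NFKB2 and POM121, ZNF331 and TMEM248 (r between 0.993 and 0.997) to NFKBIA, in a table whose AMD3100 replicate 1 stands apart. Over the other 8 libraries the same genes had r between 0.933 and 0.965 with NFKB2 and between 0.961 and 0.980 with NFKBIA. In 4T1 tumours the closest were Rnf19a, Cars and Ndufa9 for Nfkb2 (r between 0.941 and 0.949) and Rcan1, Wrnip1 and Slc9b2 for Nfkbia (r between 0.927 and 0.933).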

How the data were processed

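Poly(A) RNA was sequenced as paired reads, and the authors deposited raw read counts per gene in 3 tables of 9 libraries, made with featureCounts 2.0.1 on GRCh38 or GRCm38 per the submitters' processing notes. The aligner and annotation are not given in the sources used here. The human tables also hold a gene length per the file headers, used for RPKM. Counts were scaled by TMM and tested with edgeR 4.0.16 (R 4.3.3) by the quasi-likelihood F test with 1 coefficient per group, after the default low-count filter, with Benjamini-Hochberg adjustment over all genes tested and a threshold of 0.05. Both human tables were joined in 1 fit for differences between lines. Standard errors were derived from the fold change and its F value. The code was tested on simulated data.

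Members and gene lists were chosen with earlier results of these data known. Genes named from each pathway list came from the called genes ranked by p (at most 4 a comparison), with the 2 most abundant genes used for lists lacking 2 calls, and genes of like pattern were the 3 with the highest correlation. Alternatives were DESeq2 1.42.0, median-of-ratios scaling, no filter, a replicate block, the compared groups alone, each library left out, and a B cell marker covariate. Scaling by library totals alone was added after seeing the data. Between 35981504 and 50735374 counts a library limit precision to counting error and the spread of 3 libraries. Intervals of a log2 fold change use its SE and the t quantile of the same test. Positions of matches are from RefSeq, and chromosome intervals count from 1.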

Additional observations from a re-analysis of the deposited data

How the results depend on the processing

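Among single-member results, 1463 kept direction and call, 41 lost the call, 27 gained it and 59 changed sign, of which 57 were called in neither fit and 2 in one. Counts of called members in HCC1937 depended most on the fit. The share of all genes called for TM against vehicle was 7.07% with all libraries and 40.8% without AMD3100 replicate 1. Shares over all genes were not kept for the other alternatives, so their counts cannot be read as results about the members. For TM against vehicle, 0 became 1 without the low-count filter, 1 with DESeq2, 5 with the compared groups alone and 5 in the fit without AMD3100 replicate 1, and stayed between 0 and 0 on leaving out a TM or vehicle library. For AMD3100 against vehicle, leaving out 1 library gave 0 to 1. For AMD3100 against TM, 1 became 2 without the filter, 2 with DESeq2, 0 with the replicate block and 0 with the groups alone, and leaving out 1 library gave 0 to 7. The estimated spread between replicates (biological coefficient of variation) was 0.339 with all HCC1937 libraries and 0.0749 without AMD3100 replicate 1. The cause of the changes in count was not tested. In MDA-MB-231 leaving out 1 library gave 7 to 9 called members for bortezomib plus TM and 8 to 9 for bortezomib plus AMD3100, against 8 and 9. REL with bortezomib plus TM was called with median-of-ratios scaling (adjusted p = 0.0486) or without vehicle replicate 1 (adjusted p = 0.0121) in edgeR, over alternatives that otherwise left it uncalled. With library totals only, chosen after seeing the data, 6 and 7 members were called for the MDA-MB-231 combinations against vehicle, 7 for the lines and 5 and 6 for the TM-arm and AMD3100-arm differences. That setting turned the sign of NFKBIB between the MDA-MB-231 combinations (0.038), of Rela and Nfkb1 against vehicle in 4T1 with bortezomib plus TM (0.0029) and plus AMD3100 (0.018), and of the TM-arm differences of RELA (-0.18) and TNFAIP3 (-0.35). Low counts limit REL and BIRC3, and 3 libraries a group limit all values.

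The labels do not say that replicate numbers pair the samples. Correlations of the deviations of same-numbered samples ran from -0.468 to 0.597 in 4T1, from -0.0374 to 0.0368 in HCC1937 and from -0.324 to 0.287 in MDA-MB-231. In that order, 3, 0 and 2 of 9 such pairs were over 0.1, against 9, 0 and 9 of 18 differently numbered pairs. Deviations from a mean of 3 libraries depend on each other, so these values cannot exclude pairing. With the replicate block the counts were 8 and 9 in MDA-MB-231, 9 for the lines, 5 and 6 for the TM-arm and AMD3100-arm differences and 0 elsewhere, and NFKBIE with AMD3100 against vehicle in HCC1937 changed sign to -0.0081. No share over all genes was kept for the block either.

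Other sign changes were NFKB1 (0.0045) and NFKB2 (0.0094) for AMD3100 against TM in HCC1937 with the groups alone, and Nfkb1 (0.085) for bortezomib plus AMD3100 against vehicle in 4T1 with the B cell covariate. Leaving out 1 library changed the sign of log2 values with these ranges. In HCC1937 with TM against vehicle REL ran from -0.39 to 0.10 and BIRC3 from -0.094 to 0.24. With AMD3100 against vehicle NFKB2 ran from -0.28 to 0.17, REL from -0.30 to 0.96, RELA from -0.40 to 0.11, RELB from -0.50 to 0.16, NFKBIE from -0.25 to 0.47 and BIRC3 from -0.11 to 0.82. With AMD3100 against TM NFKB1 ran from -0.28 to 0.10, NFKB2 from -0.20 to 0.24, REL from -0.23 to 1.04, RELB from -0.32 to 0.33, NFKBIB from -0.15 to 0.010, NFKBIE from -0.11 to 0.61 and BIRC3 from -0.22 to 0.72. In MDA-MB-231 BIRC3 ran from -1.11 to 0.24 with bortezomib plus AMD3100 against vehicle, and between the combinations RELA ran from -0.027 to 0.26, RELB from -0.19 to 0.0021, NFKBIB from -0.067 to 0.023 and BIRC3 from -0.47 to 1.03. In 4T1 with bortezomib plus TM against vehicle Nfkb1 ran from -0.051 to 0.16, Nfkb2 from -0.17 to 0.023, Rela from -0.095 to 0.018, Nfkbib from -0.043 to 0.27, Nfkbie from -0.12 to 0.25 and Tnfaip3 from -0.081 to 0.48. With bortezomib plus AMD3100 against vehicle Nfkb1 ran from -0.078 to 0.037, Nfkb2 from -0.030 to 0.16 and Rela from -0.0096 to 0.10, and between the combinations Nfkb1 ran from -0.19 to 0.031, Rel from -0.047 to 0.48 and Nfkbia from -0.056 to 0.20. The TM-arm difference of TNFAIP3 ran from -0.058 to 0.44.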
